A study of Arabidopsis thaliana with 6 samples.

Results

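In Arabidopsis seedlings that overexpress IBH1, 85 genes stood at least 2-fold away from wild type and were then left at nearly the same level when PRE1 was overexpressed as well. They are 33 genes with more transcript in IBH1-Ox than in wild type and 52 with less, out of 33518 genes measured and 542 that met the limits on the first step. The members were chosen by the group means of both deposited tables. In the first table the larger mean had to be at least 50 and the ratio of IBH1-Ox to wild type at least 2 or at most 0.5. In the second table the ratio of the PRE1-Ox/IBH1-Ox line to IBH1-Ox had to lie from 0.8 to 1/0.8. Folds in either step therefore describe the choice and are given without a test.

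The data are RNA sequencing of seedlings of the Col-0 ecotype, 5 days old, kept on MS medium of 1/2 strength in constant light. There were 6 libraries in 3 groups of 2. Col is the wild type, IBH1-Ox carries 35S:IBH1-myc, and PRE1-Ox/IBH1-Ox, called the double line here, carries 35S:IBH1-myc together with 35S:PRE1-YFP. The 35S promoter drives a transgene in nearly all tissues and not only where the gene is normally on, and the number of independent lines behind each genotype is not given in the sources used here. Nothing in the labels says that the libraries of a group are separate cultures, so the spread between them may be technical.

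IBH1 is an atypical helix-loop-helix protein without DNA-binding activity of its own. It is known to pair with basic helix-loop-helix activators of cell elongation and to keep them from DNA. PRE1, a small helix-loop-helix protein, binds IBH1 and frees those activators, so added PRE1 is known to restore growth to plants with too much IBH1. The question put to the tables is which genes that differ from wild type in IBH1-Ox are not shifted back, or further, in the double line.

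The transgenes read as labelled. IBH1 (AT2G43060) stood at 179 and 138 normalized read counts in the Col libraries, at 11790 and 12997 in IBH1-Ox, and at 18485 and 18465 in the double line. PRE1 (AT5G39860) stood at 66.7 and 56.4, at 140 and 151, and at 9460 and 9325 in the same order. The IBH1 transcript was thus 1.49 times higher in the double line than in IBH1-Ox, by the ratio of the deposited means. In the second step, added PRE1, the higher IBH1 transcript and any other difference between the lines therefore cannot be told apart. In the first step, added IBH1 and any other difference between IBH1-Ox and Col cannot be told apart either. A difference from Col that both transgenic lines carry, whatever its origin, could meet the limits of both steps. Whether the members differ from Col because of added IBH1 was not tested. A normalized read count is the whole reads of a library, recovered from the deposited means, divided by the authors' size factor. Within a group, the library with the larger size factor comes first throughout. The double line was put on the scale of the first table through the IBH1-Ox libraries, which are in both tables and differ there by a constant factor of 1.12. As the tables were normalized separately, no test was made between Col and the double line. The recovered reads over all genes were 13811874 and 12092630 for IBH1-Ox and 9505678 and 7978347 for the double line, and for Col only the listed genes could be read back. In a seedling both shoot and root genes should be present, and 17 of 17 light-harvesting and RuBisCO genes and 8 of 8 root hair genes had a mean of 50 or more in the second table. In bulk seedling RNA, fewer cells of a type and less RNA per cell cannot be told apart.

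Few of the genes that stood 2-fold apart in IBH1-Ox kept that level in the double line. In the first table, which lists 1547 genes that passed the authors' test, 246 genes (15.9%) stood 2-fold or more higher in IBH1-Ox and 296 (19.1%) 2-fold or more lower, with the mean limit of 50. Of the 246 higher genes, 33 (13.4%) kept a ratio within 0.8 to 1/0.8 in the second step, 187 moved back below it, and 26 went further up. Of the 296 lower genes, 52 (17.6%) kept a ratio within the window, 216 moved back above it, and 28 went further down. Over all 17245 genes of the second table with a mean of 50 or more, 65.4% lay within the window. Both ratios contain the same IBH1-Ox libraries, once above and once below the line, so the steps are not independent of each other.

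**Figure D1:**
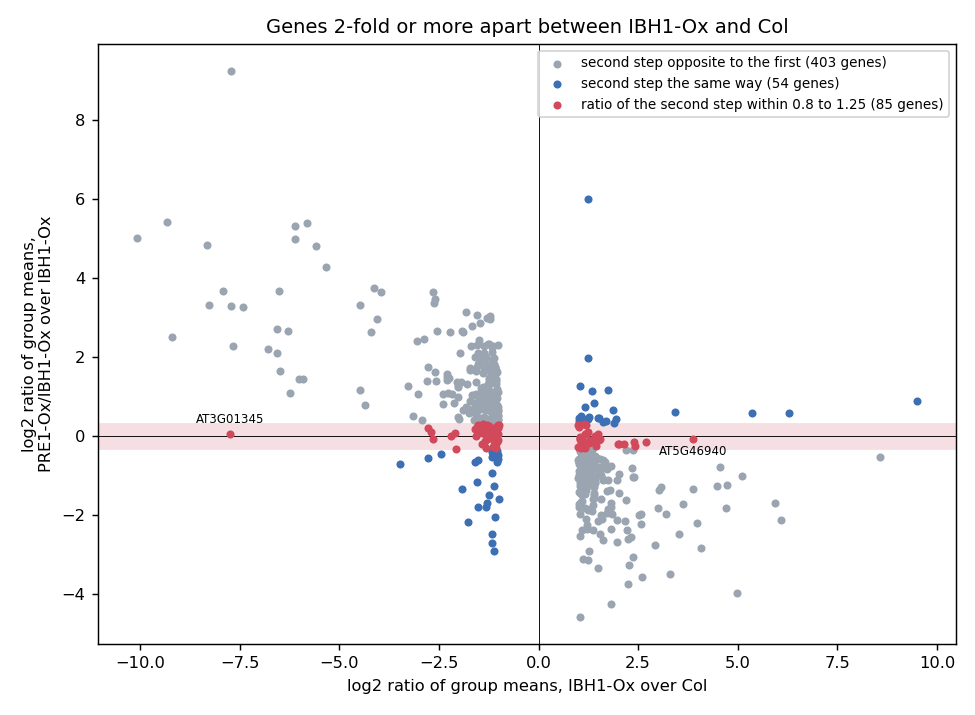
Log2 ratio of group means in the second step (vertical axis, PRE1-Ox/IBH1-Ox over IBH1-Ox) against that in the first (horizontal axis, IBH1-Ox over Col) for the 542 genes that stood 2-fold or more apart in the first step. The 85 genes of the shaded window of 0.8 to 1/0.8 lie in a flat band, while 403 genes lie on the opposite side and 54 on the same side. The farthest genes of the band on either side are named.

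Most first steps in the band lay between 2- and 3-fold, as they did among all 2-fold genes. Of the 33 higher genes 26 stood 2- to 3-fold above wild type, with a median of 2.35-fold, and of the 52 lower genes 44 stood 2- to 3-fold below it, with a median of 2.34-fold. Over all 2-fold genes it was 169 of 246 higher and 200 of 296 lower ones. Among genes that rose by 10-fold or more in the first step, 1 of 19 stayed in the window, and among those that fell by 10-fold or more 1 of 33. These are AT5G46940 and AT3G01345. In all 33 higher and all 52 lower genes the Col and IBH1-Ox libraries did not overlap, which held for 100% of the listed genes. By the product of both ratios, the higher genes stood at 1.65 to 14.1 times the wild-type level in the double line, and 26 of 33 were still at 2-fold or more. The lower genes stood at 0.00482 to 0.609 of wild type, and 42 of 52 were still at 0.5 of wild type or less.

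The window also bounds how well these levels are known. The ratio of the second step had a median of 0.930 in the higher and 1.06 in the lower genes, with 23 of 33 and 34 of 52 on the side that points back to wild type. The libraries of IBH1-Ox and the double line did not overlap in 13 of the higher and 22 of the lower genes, against 71.4% of all genes with a mean of 50 or more. The authors' test of the second step called 2 of the 85 genes, where it called 22.5% of all genes tested (12.7% higher and 9.78% lower). Since the window fixes small ratios, nothing follows from that count or from the counts without overlap. The 2 genes are ABCC8 (ratio 0.866, adjusted p = 0.029 in the authors' deposited table) and AT5G40450 (ratio 1.18, adjusted p = 0.0105). A limma-voom fit to the recovered reads of 19972 genes gave each ratio a 95% interval. That interval lay wholly within 0.8 to 1/0.8 for 5 higher and 8 lower genes, and it contained 1 for 30 and 48. For most of the 85 genes a further change somewhat beyond the window was thus not resolved with 2 libraries a group.

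Some higher genes belong to families with members that act in the cell wall, and AT5G46940 had the largest first step of the higher genes. AT5G46940, annotated as a plant invertase or pectin methylesterase inhibitor, stood at 6.35 and 2.25 normalized read counts in Col, at 70.7 and 56.6 in IBH1-Ox and at 56.4 and 65.1 in the double line. That is 14.8-fold higher in IBH1-Ox, and the double line gave a ratio of 0.955 to it (95% interval 0.679 to 1.33). The Col level rests on 10 reads in all. EXPA2 (AT5G05290), an expansin of the wall-loosening family, stood at 19.0 and 6.76, at 53.5 and 82.5, and at 54.7 and 69.3 in the same order. Its Col libraries differed 2.82-fold from each other, yet both were below all 4 libraries with the IBH1 transgene. AT3G15720, annotated as pectin lyase-like, stood at 52.4 and 55.2, at 119 and 117, and at 150 and 141, and sat near the upper edge of the window with a ratio of 1.23.

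Further higher genes have products linked to detoxification and specialized metabolism, as do the lower genes GSTF11, BCAT4, IGMT2 and IGMT4. Of all cytochrome P450 genes, 10 stood 2-fold or more higher in the first step and 11 lower. Of glycosyltransferases, 4 stood higher and 2 lower. ABCC8 (AT3G21250), a transporter of the multidrug resistance class, stood at 518 and 507 normalized read counts in Col, at 2015 and 2119 in IBH1-Ox and at 1746 and 1832 in the double line. It was 4.03-fold higher in IBH1-Ox, and both double-line libraries lay below both IBH1-Ox libraries. CYP81D11 (AT3G28740), a cytochrome P450 known to respond to foreign chemicals, stood at 590 and 681, at 1693 and 1700, and at 1644 and 1765. Its second ratio of 1.00 had a 95% interval of 0.921 to 1.09, one of the narrowest of the band. CYP71B24 stood 2.34-fold higher in IBH1-Ox, the glycosyltransferases AT5G49690 and AT1G01390 2.72-fold and 2.23-fold, and the acyltransferase AT5G47950 2.11-fold. Of these, AT5G47950 was nearest the lower edge of the window, at a ratio of 0.809.

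Transporters of nutrients make up a small group of the higher genes, and others, such as SULTR2;1, AT5G02180 and YSL1, are among the lower genes. SULTR1;1 (AT4G08620), a sulfate uptake transporter of roots, stood at 27.0 and 33.8 in Col, at 66.4 and 62.8 in IBH1-Ox and at 58.2 and 67.2 in the double line. NRT1.8 (AT4G21680), which takes nitrate back from the xylem, stood at 108 and 113, at 209 and 234, and at 252 and 267. AAP6 (AT5G49630), an amino acid permease, stood at 262 and 232, at 482 and 511, and at 609 and 600. SULTR1;1 overlapped between the transgenic lines, whereas NRT1.8 and AAP6 were higher in both double-line libraries than in both IBH1-Ox libraries, by ratios of 1.17 and 1.22.

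Regulators, light and root genes complete the named higher genes. AT5G50915, a basic helix-loop-helix gene, stood at 41.3 and 36.1 in Col, at 157 and 153 in IBH1-Ox and at 123 and 145 in the double line, which is 4.01-fold higher in the first step and a ratio of 0.865 in the second. RHL41 (AT5G59820), also called ZAT12, a zinc finger factor of the light and oxidative stress response, stood 2.14-fold higher, with 80.2 and 50.7 in Col and 147 and 133 in IBH1-Ox. LHCB4.3 (AT2G40100), a minor antenna protein of photosystem II, stood at 311 and 301, at 624 and 761, and at 744 and 703. RHS19 (AT5G67400), a root hair gene, stood at 565 and 479, at 1133 and 1006, and at 1085 and 970. In LHCB4.3 and RHS19 the libraries of both transgenic lines overlapped and lay above Col.

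Among genes of unknown role, AT5G55570 stood 6.44-fold higher, with 37.3 and 22.5 normalized read counts in Col, then 228 and 158 with IBH1 alone and 175 and 174 with both transgenes. AT3G44716 stood 5.32-fold higher (29.4 and 31.6, 185 and 139, 136 and 136), and AT2G23970, annotated as a glutamine amidotransferase-like protein, 4.41-fold (11.9 and 11.3, 49.2 and 52.9, 42.3 and 46.2). Products named as uncharacterized account for 4 of the 33 higher genes. The remaining higher genes stood 2.00- to 2.91-fold above Col. They encode the carboxypeptidase-like SCPL9, the methyl esterase MES8, the serpin CCP3, the vesicle protein VTI13, the ribonuclease-like RTL3, the lipid-transfer-like proteins AT2G44290 and AT4G33550, the hydrolases AT4G17470 and AT5G22460, the C1 domain proteins AT2G04500 and AT3G45530, the SAP domain protein AT5G66840, the uncharacterized AT3G03170, and the pseudogene AT5G35777.

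**Figure D2:**
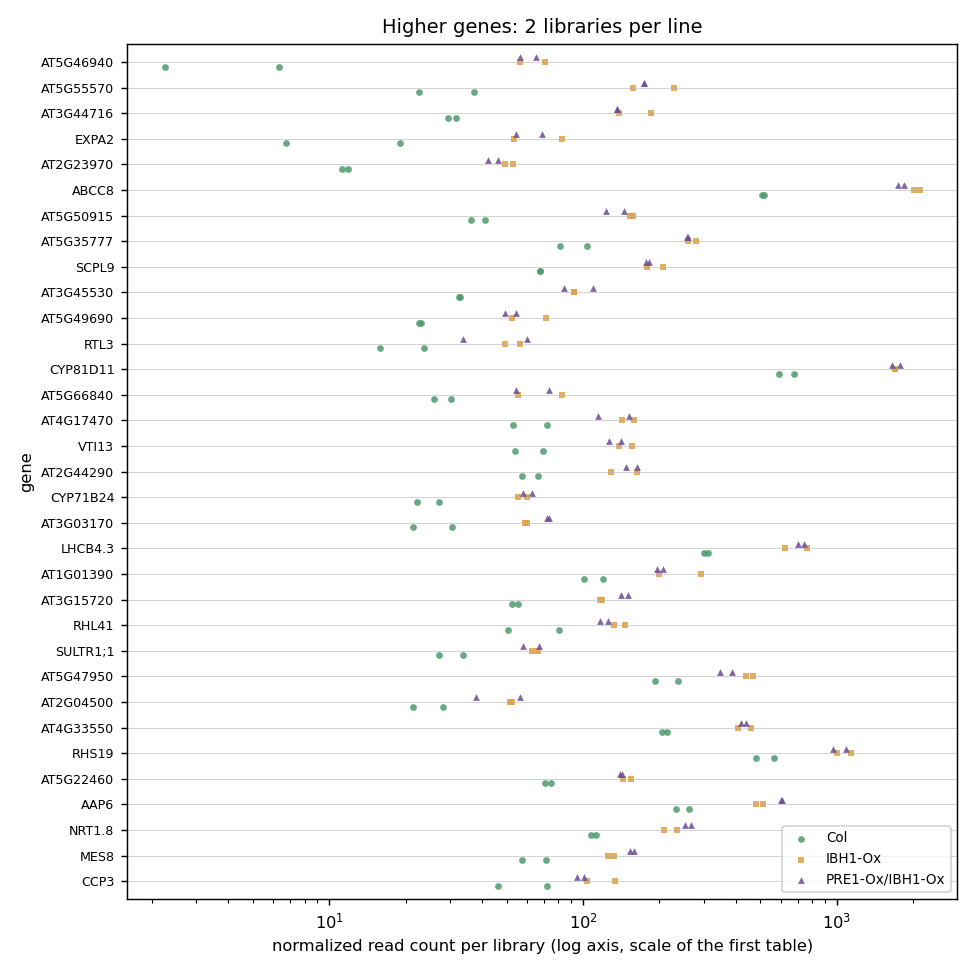
Normalized read count of each library (log axis) for the 33 genes that stood higher in IBH1-Ox, with the largest first step at the top and circles for Col, squares for IBH1-Ox and triangles for the double line. In every gene both circles lie left of all squares and triangles, and squares and triangles overlap in 20 of 33 genes.

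The lower genes hold the single largest fold of the band. AT3G01345, which encodes an uncharacterized protein, stood at 4210 and 4244 normalized read counts in Col, at 17.1 and 22.2 in IBH1-Ox and at 17.6 and 23.1 in the double line. That is 215-fold lower in IBH1-Ox, with the double line at a ratio of 1.04 (95% interval 0.611 to 1.81). The gene next to it in size of change, HSD3 (AT3G47360), a hydroxysteroid dehydrogenase gene, stood at 175 and 150, at 25.7 and 22.2, and at 15.9 and 39.9, which is 6.78-fold lower. Its double-line libraries differed 2.51-fold from each other, the widest gap within that line in the band. AT4G02540, a C1 domain gene, stood 6.44-fold lower, from 464 and 455 in Col to 73.9 and 68.9 in IBH1-Ox and 91.7 and 63.0 in the double line. The phosphatase gene PP2A (AT1G69960) stood 6.31-fold lower, from 4629 and 4103 to 650 and 735, with 639 and 678 in the double line.

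Intracellular immune receptors account for 4 of the 52 lower genes. RPP1 (AT3G44480), an intracellular receptor known for recognition of downy mildew, stood at 1028 and 1058 in Col, at 340 and 396 in IBH1-Ox and at 386 and 411 in the double line. Its relatives AT3G44670 and AT3G44630 stood at 878 and 868 and at 742 and 679 in Col, at 300 and 356 and at 278 and 278 in IBH1-Ox, and at 358 and 332 and at 250 and 258 in the double line. AT5G48620, a receptor of the coiled-coil class on chromosome 5, stood at 1206 and 1190, at 552 and 583, and at 637 and 690. All 4 receptors were thus 2.11- to 2.83-fold below Col in IBH1-Ox, with second ratios of 0.914 to 1.17. Of 93 genes annotated as such receptors with a mean of 50 or more, 9 stood 2-fold or more lower and 3 higher. The 4 members are 4.30% of the 93, beside 0.493% for all genes, a share that also counts how often receptors met the first limit. Among genes 2-fold lower, members were 4 of 9 receptors, beside 52 of 296 genes (17.6%), and no test was made. Of the 4, 3 lie in the RPP1 cluster and may not be separate counts. Receptors of a cluster share sequence, so the assignment of reads among RPP1, AT3G44630 and AT3G44670 is uncertain. Their neighbour AT3G44400 stood at 4.59 times the Col level in IBH1-Ox and just outside the window in the second step, at a ratio of 0.782.

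Of genes whose product wording names a receptor-like kinase or protein, 9 stood 2-fold or more lower in the first step and 6 higher, so the class went both ways, and the kinase genes named here were lower. WAK2 (AT1G21270), a kinase that binds pectin in the wall, stood at 448 and 455 in Col, at 187 and 153 in IBH1-Ox and at 201 and 185 in the double line. CRK21 (AT4G23290), a cysteine-rich receptor kinase, stood at 956 and 858, at 400 and 402, and at 388 and 474. AT4G02410, a lectin receptor kinase gene, was 2.91-fold lower in IBH1-Ox, the leucine-rich repeat kinase gene AT3G46370 2.65-fold, the glutamate receptor gene GLR2.7 2.45-fold and the legume lectin gene AT3G16530 2.98-fold. The ethylene response factors ERF2 (AT5G47220) and ERF15 (AT2G31230) were 2.29-fold and 2.04-fold lower. ERF2 stood at 61.9 and 54.1, at 15.0 and 35.7, and at 22.9 and 29.4, so its IBH1-Ox libraries differed 2.38-fold from each other and enclosed both double-line libraries.

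Glucosinolates are sulfur-rich defence compounds of the cabbage family, and 1 gene of their list was in the band. BCAT4 (AT3G19710), the aminotransferase that opens methionine chain elongation, stood at 1155 and 1028 in Col, at 305 and 208 in IBH1-Ox and at 280 and 264 in the double line. It was 4.25-fold lower in the first step and at a ratio of 1.06 in the second (95% interval 0.868 to 1.32). Of 22 glucosinolate and myrosinase genes, 13 were listed as lower in the first table, 11 of them by 2-fold or more, and none as higher. The authors' test of the second step called 15 of the 22 as higher and 1 as lower. The other 10 of the 11 had second ratios from 1.60 for CYP79F2 to 9.96 for CYP79F1, with 2.69 for CYP83A1, a core enzyme of the aliphatic branch. The difference between BCAT4 and these genes was not tested.

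Of 10 genes of sulfate uptake and sulfur deficiency, a list made after the values had been seen, 1 was listed as higher and 4 as lower in the first table, and the band holds SULTR1;1 as higher and SULTR2;1 and LSU1 as lower. Further lower members act in glucosinolate, methionine and branched-chain amino acid metabolism. GSTF11 (AT3G03190), a glutathione transferase linked to aliphatic glucosinolates, stood at 157 and 127 in Col, at 62.1 and 50.5 in IBH1-Ox and at 68.8 and 58.8 in the double line. IGMT4 (AT1G21130) and IGMT2 (AT1G21120) encode methyltransferases of indole glucosinolates and lie side by side. IGMT4 stood at 3241 and 3281, at 1387 and 1446, and at 1425 and 1404. IGMT2 stood at 473 and 508, at 226 and 230, and at 185 and 204. These genes are close copies, and reads with several alignments were entered apart from the genes, so their levels may miss reads. Their neighbour IGMT1 (AT1G21100) stood 1.67 times higher in IBH1-Ox and at a ratio of 0.148 in the second step. SULTR2;1 (AT5G10180), a sulfate transporter of the vasculature, stood at 1608 and 1498, at 680 and 709, and at 720 and 762. LSU1 (AT3G49580), a gene of the low sulfur response, lay at the edge of the rule with a first ratio of 0.499 and a second of 1.22. AK3 (AT3G02020), an aspartate kinase at the entry to methionine synthesis, was 3.01-fold lower, and BCAT-1 (AT1G10060), which breaks down branched-chain amino acids, 2.06-fold.

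Of the auxin-linked genes, 3 small auxin-up RNAs stayed low. SAUR16 (AT4G38860) stood at 891 and 912 in Col, at 413 and 469 in IBH1-Ox and at 450 and 470 in the double line. SAUR20 (AT5G18020) stood at 113 and 118, at 52.5 and 38.2, and at 49.4 and 44.1, and SAUR27 (AT3G03840) at 54.8 and 57.5, at 25.7 and 27.1, and at 26.5 and 18.9. Small auxin-up RNAs are early auxin-response genes tied to cell expansion. Of 25 in the list, 14 were listed as lower in the first table, none as higher, and 7 met the 2-fold and mean limits. Of those 7, the second ratios were 1.04, 1.03 and 0.859 for these members, 1.36 for SAUR15 and 1.34 for SAUR64, and 0.693 for SAUR21 and 0.634 for SAUR65. The authors' test of the second step called 1 of the 25 as higher and 2 as lower. Many of these genes are close copies of their neighbours, so the assignment of reads is uncertain. DFL2 (AT4G03400), a GH3 gene of light-grown seedlings, stood at 732 and 672, at 280 and 278, and at 245 and 210. RGF9 (AT5G64770), a secreted peptide of the root meristem growth factor family, stood 2.12-fold lower and at a ratio of 0.856. In both of these genes the double line lay below IBH1-Ox in both libraries, thus slightly farther from Col.

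Metal-related members were the nicotianamine-metal transporter gene YSL1 (AT4G24120), the chloroplast ferric reductase gene FRO7 (AT5G49740) and AT3G25190, annotated as a vacuolar iron transporter family gene. AT3G25190 stood at 822 and 785 in Col, at 406 and 389 in IBH1-Ox and at 409 and 411 in the double line. YSL1 was 2.04-fold lower with a second ratio of 0.933, and FRO7 2.06-fold lower with 0.898. No gene of the 14 in the iron uptake list was in the band, although 6 of them stood 2-fold or more lower in the first step. IRT1, the root iron transporter, had a second ratio of 13.5 and FRO2, the root ferric reductase, 12.6.

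The remaining lower genes cover scattered functions. AT5G40450, annotated as A-kinase anchor-like, had the highest level among the lower genes, at 15546 and 14843 in Col, 7498 and 7397 in IBH1-Ox and 8876 and 8758 in the double line. The locus next to it in number, AT5G40451, stood at 660 and 638, at 299 and 294, and at 337 and 225. Whether reads were counted by strand is not given in the sources used here, so reads of overlapping genes at such a place could not be told apart. The terpenoid cyclase-like gene AT3G32030 was 4.55-fold lower and the amino acid transporter gene AT5G02180 4.17-fold, the latter at the lower edge of the window with a second ratio of 0.805. The others stood 2.03- to 2.84-fold below Col, and their second ratios ran from 0.810 for AT5G43440 to 1.24 for AT4G22490. They are AT1G10990, scpl31, GLYI4, AT1G35350, AT1G57980, AT3G27340, AT3G27906, AT3G28140, AT3G29760, MES11, the small nucleolar RNA AT3G47348, AT4G09760, AT4G10150, AT4G22490, TPD1 and AT5G43440.

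**Figure D3:**
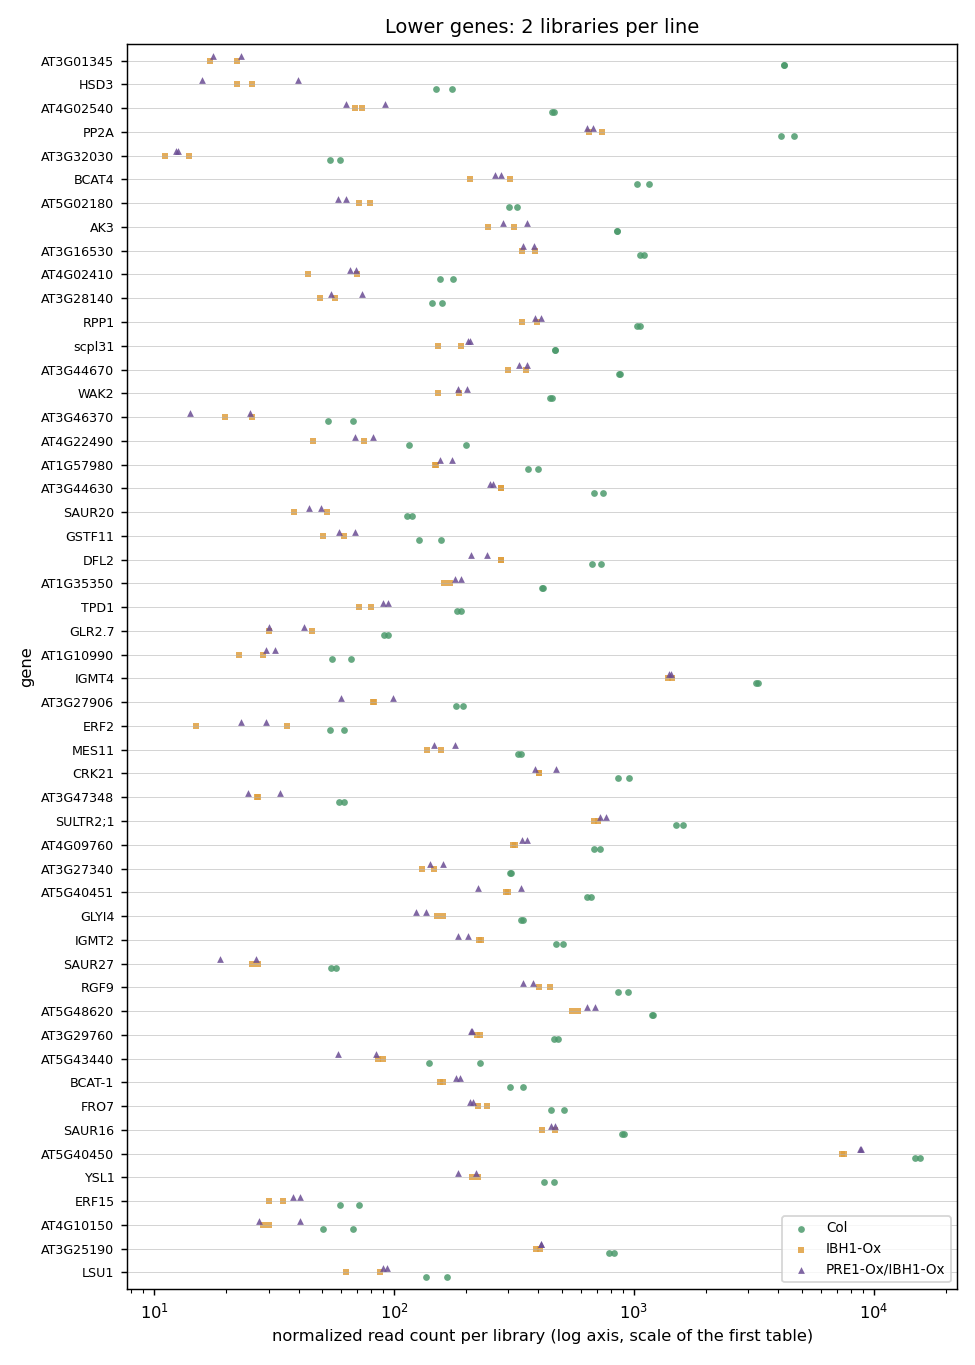
Normalized read count of each library (log axis) for the 52 genes that stood lower in IBH1-Ox, with the largest first step at the top and circles for Col, squares for IBH1-Ox and triangles for the double line. In every gene both circles lie right of all squares and triangles, and squares and triangles overlap in 30 of 52 genes.

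Of the 237 genes in the 17 pathway lists, 4 were members, namely BCAT4, SAUR16, SAUR20 and SAUR27. Over all 33518 genes measured, 17245 of which had a mean of 50 or more, 85 were members. The lists for expansins, xyloglucan endotransglucosylase/hydrolases, brassinosteroid synthesis, helix-loop-helix factors of elongation, the clock, seed oil breakdown, seed storage, flavonoids, pathogen response, root hairs, phosphate starvation, cold and abscisic acid, light harvesting, GH3 and Aux/IAA genes and iron uptake held no member. The lists do not cover whole families. The members RHS19, LHCB4.3 and DFL2 were not in the root hair, light-harvesting or GH3 lists. EXPA2 was not in the expansin list of 13 genes, of which 3 stood 2-fold or more lower in IBH1-Ox, and 8 of the 13 passed the authors' test as higher in the second step. Of 23 helix-loop-helix factors, 2 stood 2-fold or more higher and 1 lower in the first step. In the second, 8 passed as higher and 10 as lower. Of the light-harvesting and RuBisCO list, 0 of 17 were listed in the first table. By annotated product, the band held 2 of 141 cytochrome P450 genes with a mean of 50 or more, 2 of 90 glycosyltransferases, 2 of 205 receptor-like kinases and proteins (CRK21 and AT3G46370, as the wording does not take in WAK2 or AT4G02410), and 1 of 127 transposable elements and pseudogenes, AT5G35777. It held none of 123 F-box genes, 68 peroxidases, 11 small cysteine-rich peptides or 165 genes of unknown function by that wording. At the share of 0.493% over all genes, classes of such size would often hold none. Nothing therefore follows from these zeros or from the lists without a member.

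Chromosome 3 was the most frequent home of the lower genes. On it lay 20 of the 52 lower genes (38.5%), beside 19.7% of all genes with a mean of 50 or more. The lower genes that moved back had 24.5% on chromosome 3 (53 of 216), and those that moved further down had 46.4% (13 of 28). Of the higher genes 13 of 33 (39.4%) lay on chromosome 5, where the higher genes that moved back had 32.1% and those that went further up 34.6%. The others were 8 (24.2%) on chromosome 3, 7 (21.2%) on chromosome 2, 4 (12.1%) on chromosome 4 and 1 (3.03%) on chromosome 1. Over all genes with a mean of 50 or more, 26.2% lay on chromosome 1 and 23.5% on chromosome 5. Chromosome 2 held 2 of the 52 lower genes, and chromosomes 1, 4 and 5 held 10 each. These shares are a description of the genes chosen, and no test of enrichment was made.

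**Figure D4:**
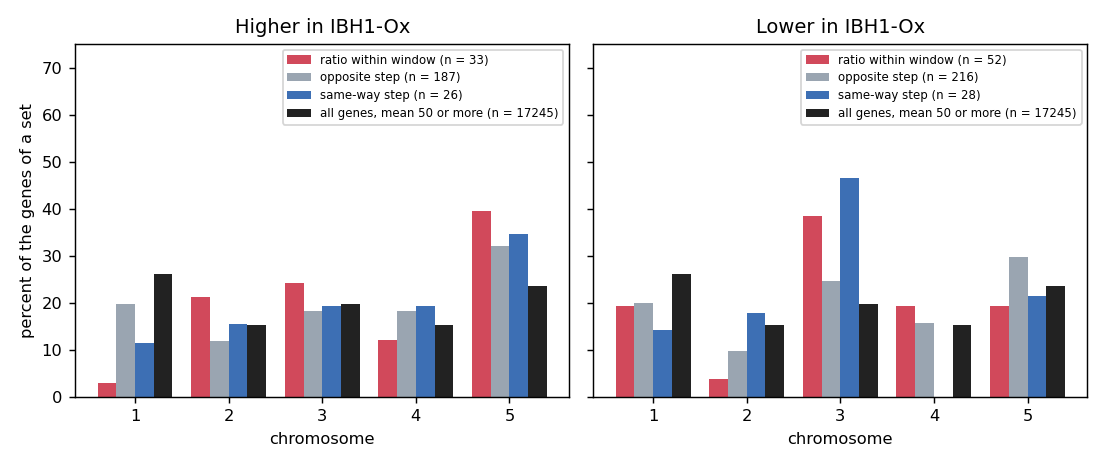
Percent of the genes of each set on chromosomes 1 to 5, for genes higher (left) and lower (right) in IBH1-Ox, with black bars for all 17245 genes of mean 50 or more. The lower genes within the window have 38.5% on chromosome 3 beside 19.7% of all genes.

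Within chromosome 3 the members gathered around its middle. The stretch from AT3G25190 to AT3G49580, set after the positions had been seen, holds 641 of the chromosome's 3400 genes with a mean of 50 or more (18.9%). It holds 14 of the 20 lower and 5 of the 8 higher members there. Of genes that moved back it holds 24 of 53 lower and 15 of 34 higher ones, and of those that moved further 10 of 13 lower and 3 of 5 higher ones. In runs of 200 consecutive genes by locus tag, the most members were 5, from AT3G44480 to AT3G45530. These are RPP1, AT3G44630 and AT3G44670, which stood lower, and AT3G44716 and AT3G45530, which stood higher. AT3G45530, a C1 domain gene, stood at 32.5 and 32.7 in Col, at 92.1 and 92.3 in IBH1-Ox and at 109 and 83.9 in the double line. Genes in this run thus stood apart from Col in both directions.

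Some members were close neighbours in gene order. In 10 pairs of successive members the genes lay within 10 places of each other, and in 7 of the 10 both had the same direction. The 10 include pairs of the chromosome 3 stretch, such as AT3G44630 with AT3G44670 and AT3G44670 with AT3G44716 of the densest run. No such count was set beside these for other genes, so nothing about the members follows from it. IGMT2 and IGMT4 on chromosome 1, and AT5G40450 and AT5G40451 on chromosome 5, were directly adjacent. WAK2 followed IGMT4 at 15 places. On chromosome 5, AAP6 and AT5G49690 stood higher, and FRO7, 5 places further on, lower. The stretches that hold members also hold genes that differed between the double line and IBH1-Ox. AT3G47250, near HSD3, had 1264 and 1226 normalized read counts in Col, 1.07 and 1.23 in IBH1-Ox and 28.2 and 46.2 in the double line. AT3G28320, near AT3G28140, had 2.38 and 0 in Col, 897 and 828 in IBH1-Ox and 1598 and 1624 in the double line.

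**Figure D5:**
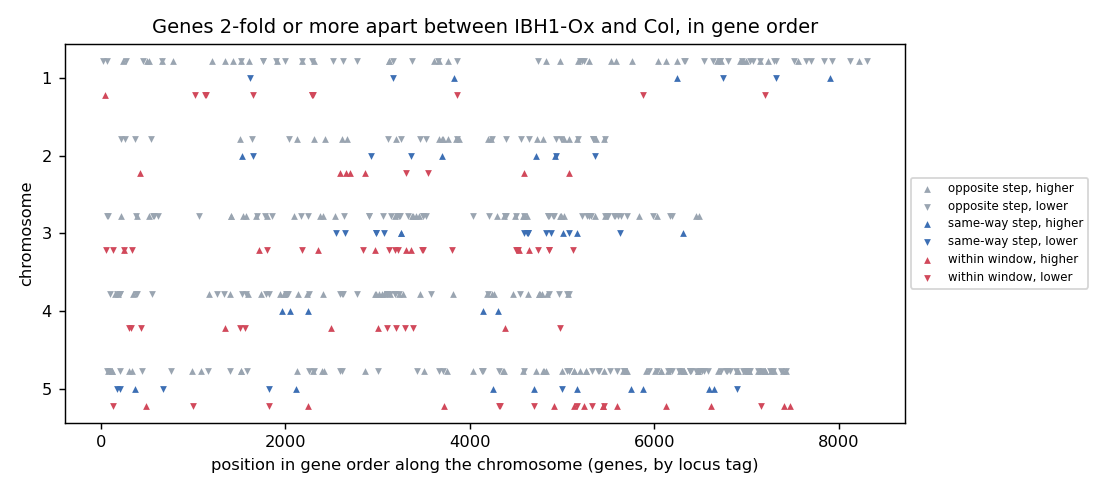
Place of the 2-fold genes in gene order along chromosomes 1 to 5 (horizontal axis, rank by locus tag), with the row of each chromosome divided by the direction of the second step and triangles pointing up for higher and down for lower in IBH1-Ox. Members (red) on chromosome 3 lie mostly in its middle, with 19 of 28 between AT3G25190 and AT3G49580.

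At the limits of the rule the values pass without a gap. Just inside the 2-fold limit were CCP3 at a first ratio of 2.003 and MES8 at 2.003, and just outside AT5G24080 and AT5G58120, both at 1.991. On the lower side LSU1 at 0.499 and AT3G25190 at 0.495 were inside, and AT1G22065 at 0.504 and NEET (AT5G51720) at 0.509 outside. For the second ratio of higher genes, AT5G47950 at 0.809 and AT1G01390 at 0.818 were inside and AT5G38100 and AT3G45095, both at 0.792, outside. AT3G15720 at 1.23 and AT3G03170 at 1.22 were inside, and AT1G76590 at 1.253 and AT3G49970 at 1.267 outside. For lower genes, AT5G02180 at 0.805 and AT5G43440 at 0.810 were inside and CYP71B26 at 0.768 and AT2G25735 at 0.754 outside. AT4G22490 at 1.24 and LSU1 at 1.22 were inside, and FLS2 (AT5G46330), the flagellin receptor gene, at 1.276 and AT3G50840 at 1.319 outside.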

How the data were processed

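The authors aligned reads with TopHat and tested genes with DESeq on the TAIR10 build, per the submitters' processing notes, and versions are not given in the sources used here. Each deposited table holds group means of counts divided by size factors, a normalized signal, and the authors' ratio of the means as a fold, its log2, the p-value and the adjusted p-value, per the file headers. The first table lists 1547 called genes only, the second 33518 genes. Entries that name no gene (reads with several alignments made up 12.8% of the IBH1-Ox signal and 10.3% of that of the double line) were left out.

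Each deposited mean was split into the whole reads of its 2 libraries within printing precision plus a relative tolerance of 1e-10, or 2e-09 for means under 100. Of means above 0, 98.2% to 99.9% gave 1 pair, the IBH1-Ox pairs of both tables were equal for 1519 of 1519 genes, and all 85 members were split in every group. When tested on simulated data of 2000 means per group, 99.75% to 100% gave 1 pair, and 100% of those were right, while 0.6% to 0.9% of random numbers also found a pair. Which of the pair came from which numbered sample is unknown. Ratio intervals came from limma-voom (limma 3.58.1, R 4.3.3) over 19972 genes with a mean of 10 or more, with library sizes proportional to the authors' size factors.

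Names come from the RefSeq annotation of TAIR10.1, which matched 84 of the 85 members, or from the gene lists drawn up for this report. No coordinates were taken from it, since the authors name TAIR10, and gene order is by locus tag. The members and the 17 lists were chosen with earlier results of these data known, and the lists for sulfate uptake, indole glucosinolate methyltransferases, RPP1 neighbours and wall-associated kinases were made after the values had been seen. Genes were named by size of change, level, list membership, nearness to the limits and place in the densest run, and then by annotated function for the remaining members.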

Additional observations from a re-analysis of the deposited data

How the results depend on the processing

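The number of genes in the band follows its limits. A first step of 3-fold left 7 higher and 8 lower genes, of which 2 and 5 were on chromosome 3, and a window of 0.9 to about 1/0.9 left 17 and 25, with 4 and 13 on chromosome 3. A minimum mean of 100 left 5 higher members on chromosome 3. The authors' test called 2 members in the second table, 0 at an adjusted p below 0.01, and limma-voom, which called 38.2% of all genes fitted, called 5. The densest run held 8 members when 400 consecutive genes were taken. Without 1 library in turn, the count ran from 30 to 43 for higher and from 47 to 59 for lower genes, with 8 to 11 and 17 to 21 on chromosome 3. The sets changed more than the counts, since 23 to 29 of the 33 and 38 to 49 of the 52 were shared. Rescaling the second ratio by its median or by summed gene signal, an adjusted p below 0.01 in the first table and no mean limit each kept both counts within 1.5 times. The cause was not tested beyond the limits themselves. No paired analysis was possible because the deposited columns are group means that carry no replicate number. Depth limits the lowest levels, such as the 10 reads of AT5G46940 in Col.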
